A study of Drosophila melanogaster with 3 samples.

Results

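The genes described here encode translation factors and cytoplasmic aminoacyl-tRNA synthetases of *Drosophila melanogaster*. They were taken as a list of 39 CG numbers that covers initiation, elongation and release factors, the poly(A) binding protein and the synthetases. Every listed gene was looked up among the array values without regard to its ratio, but the list was chosen with earlier results of these data known. Of these 39 genes, 18 had at least 1 value, among 7498 genes in all, and the other 21 are not analysed here. A value was present for 46.2% of the list, and for 45.4% of the 13962 protein-coding genes of the RefSeq annotation.

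Translation of an mRNA starts when the cap-binding complex eIF4F, formed by the cap-binding protein eIF4E, the scaffold eIF4G and the RNA helicase eIF4A, recruits the small ribosomal subunit. The poly(A) binding protein contacts eIF4G and links the tail of the mRNA to its cap, while eIF2 delivers the initiator tRNA and eIF3 holds the complex together on the small subunit. Elongation factor eEF1A then brings each charged tRNA to the ribosome, eIF5A helps the ribosome past stretches that are difficult to join, and aminoacyl-tRNA synthetases charge the tRNAs with their amino acids. These genes are expressed in practically every tissue, the muscle of the larval heart included.

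The arrays compared *hand173* with *w1118*. The first is a homozygous null mutant of *hand*, the only fly gene for a Hand type basic helix-loop-helix factor, and the second served as wild type. For each genotype about 100 heart tubes, with their pericardial cells and attached muscles, were dissected from wandering larvae of instar 3 raised at 22 °C, and the RNA was pooled. The same pair of pools was amplified and hybridized to 3 spotted arrays with 2 colours, with *hand173* RNA in Alexa Fluor 647 and *w1118* RNA in Alexa Fluor 555 on each of them and no dye swap. The sample titles number the arrays with the abbreviation bR, which they do not spell out and which could stand for biological replicates, whereas the study's methods call the arrays technical replicates. The methods were followed, so that any SD given here is the spread between arrays, the difference between genotypes has no replicate check, and a dye effect cannot be told apart from a difference between genotypes. Since whole dissected tissue was used, fewer cells of a type and less RNA per cell cannot be told apart either.

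Each value is the deposited log2 ratio of *hand173* over *w1118*, below 0 where the transcript was lower in the mutant pool. The arrays did not share a centre, with medians over all genes of 0.97 (array 1), 0.38 (array 2) and -0.56 (array 3), and values are therefore also given as centred log2 ratios, that is, after subtraction of the median of their array. The 3 arrays held 1372, 2650 and 6459 values. Arrays 2 and 3 resembled each other, with a Pearson's r of 0.77 over the 1982 genes measured on both. Array 1 resembled neither, with 0.14 for array 3 over 937 genes and 0.091 for array 2 over 530 genes. These correlations run across genes, which are not independent replicates and share the same RNA. Of 8 heart muscle markers 4 had a value, with centred log2 ratios from -0.39 to 1.78, and a ratio does not show whether a marker was abundant. The *hand* gene itself had 1 value, -0.16 on array 3, or 0.40 centred, and gives no check of the genotypes, since the part of the gene that the allele lacks was not compared with the probe.

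Translation factors were sampled unevenly. All 4 genes of the cap-binding complex and the poly(A) binding protein had values, as did 3 of 4 elongation factors, counted with eIF5A, but only 1 of 8 eIF3 subunits, 1 of 4 factors of the start-site complex and 9 of 18 synthetases. The only release factor listed, eRF1, had none. Values on all 3 arrays were present for 5 of the 18 genes, or 27.8%, against 6.21% of all genes, and 8 of the 18 had values on at least 2 arrays.

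By the rule of the study's methods a gene was scored as lower in *hand173* with a ratio under 0.67, a log2 ratio of -0.58, and as higher with a log2 ratio over 0.41, on at least 2 of the 3 arrays. These limits are called the lower and the upper threshold. Among the 8 genes with at least 2 values, 5 were scored as lower, namely *eIF4G1*, *eIF4E1*, *pAbp*, *eEF1alpha1* and *eIF5A*, and 0 as higher. Of all 2517 genes with at least 2 values, 20.5% were scored as lower and 9.69% as higher. On centred arrays *eIF4A* was added, so that 6 of 8 genes were lower and 0 higher, against 21.9% lower and 11.8% higher of all genes. Genes with 3 values were scored as lower more often. Of all 466 such genes 45.3% were scored as lower, or 47.2% on centred arrays, and all 5 translation factors with 3 values were among them in both settings. No test was made of these counts. The median over the 8 genes of the mean log2 ratio was -0.87 as deposited and -1.09 on centred arrays, against 0.052 and 0.013 over all genes with at least 2 values. As deposited it was -1.62 without array 1 (7 genes), -0.78 without array 2 (6 genes) and -0.13 without array 3 (5 genes). For the 5 genes with 3 values the median was -1.14 on centred arrays, against -0.40 over all genes with 3 values.

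**Figure D1:**
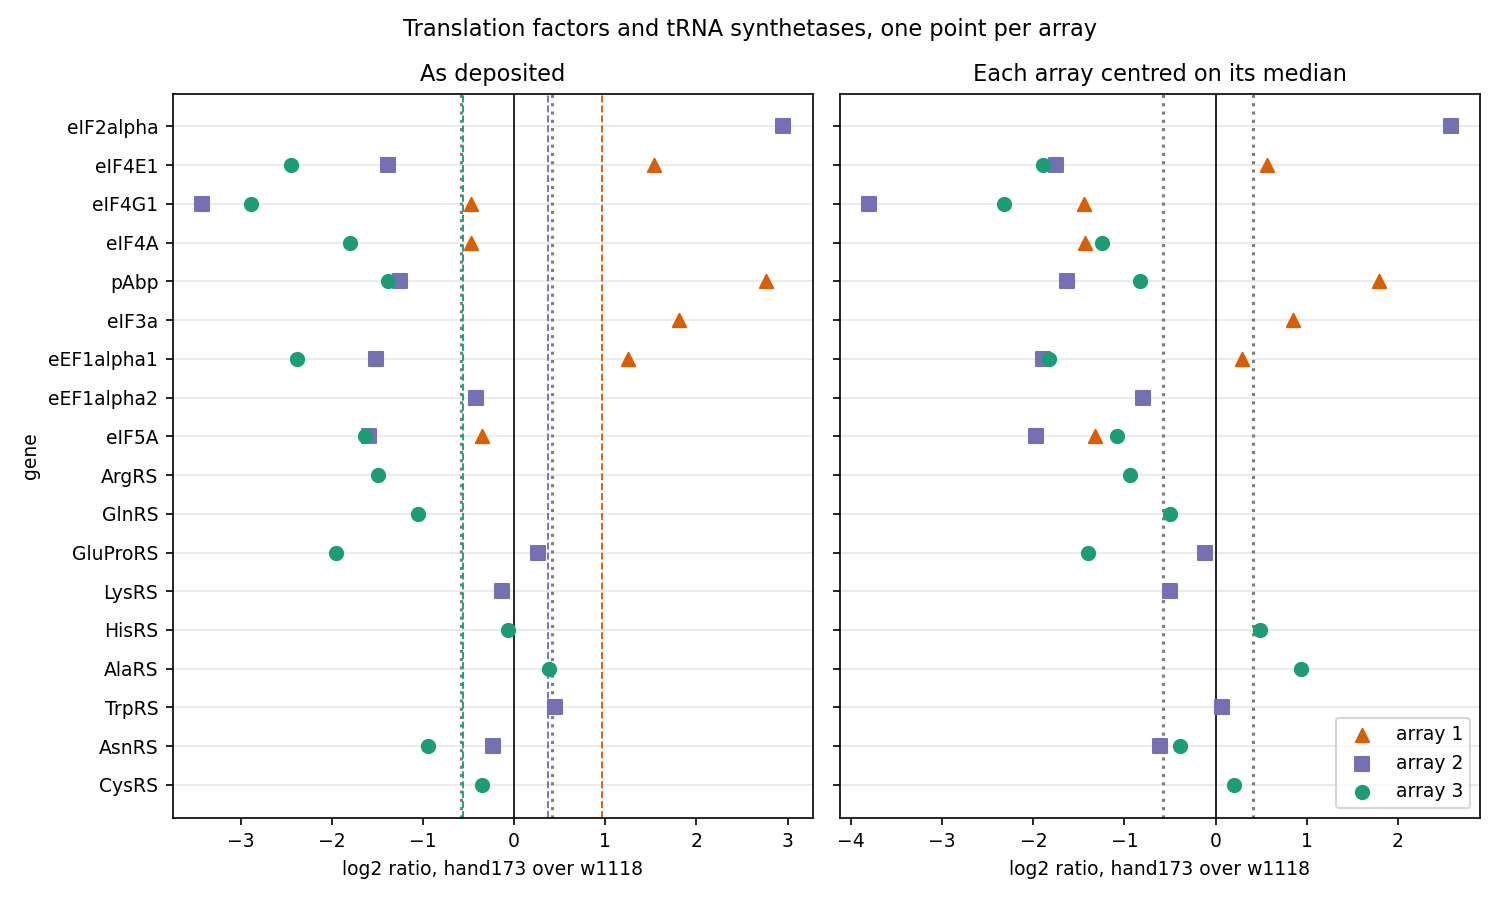
Log2 ratios of *hand173* over *w1118* for the 18 genes with a value, 1 point per array, as deposited on the left and centred on the right. Dashed lines mark the array medians (0.97, 0.38 and -0.56), dotted lines the thresholds at -0.58 and 0.41. *eIF4E1*, *pAbp* and *eEF1alpha1* lie right of 0 on array 1, *eEF1alpha1* by only 0.29 when centred, and left of it on arrays 2 and 3, whereas *eIF4G1*, *eIF4A* and *eIF5A* lie left of 0 on every array with a value.

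Within the cap-binding group, the scaffold *eIF4G1* (CG10811) had the lowest mean of the 18 genes. Its log2 ratios on arrays 1, 2 and 3 were -0.48, -3.42 and -2.88, with a mean of -2.26 ± 1.57 (SD, n = 3 arrays). It lay below 0 on each array, and only 5.03%, 1.40% and 4.13% of the values of arrays 1, 2 and 3 were lower. Centred, the values were -1.45, -3.80 and -2.33, which correspond to 0.367, 0.0717 and 0.199 of the array median. Quantitative PCR in whole larvae, a separate readout not analysed here, was also run for *eIF4G1* and *eIF5A*. The primers of that PCR for *eIF4G1* are shown. By the study's methods primers could match several splice variants, and they were not compared with the array probe.

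eIF4G1 forward primer, 24 bases: cctacacggcatactgttaaagcc

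eIF4G1 reverse primer, 22 bases: tgctacaggagcaacagaacgg

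The helicase *eIF4A* (CG9075) had log2 ratios of -0.47 on array 1 and -1.80 on array 3 and no value on array 2. Centred, these became -1.44 and -1.24, a mean of -1.34 ± 0.14 (SD, n = 2 arrays), so that the arrays differed little once their levels were removed. As deposited its ratio on array 1 was 0.722, just over the threshold, and it was scored as lower on centred arrays only.

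The cap-binding protein *eIF4E1* (CG4035) had 1.53 on array 1, but -1.38 on array 2 and -2.45 on array 3, as log2 ratios. The arrays lay on both sides of 0, with a relative level of 2.89 on array 1 against 0.385 and 0.183 on the other arrays. Centring did not remove this difference, since array 1 then gave 0.56, against -1.76 and -1.90. The mean was -0.77 ± 2.06 (SD, n = 3 arrays) as deposited and the SD exceeded the mean, whereas arrays 2 and 3 alone gave a centred mean of -1.83 ± 0.10 (SD, n = 2 arrays). The poly(A) binding protein gene *pAbp* (CG5119) was split between the arrays in the same way and with a wider gap, with log2 ratios of 2.76, -1.25 and -1.38 on arrays 1, 2 and 3. On array 1 it lay above 97.4% of the values, on arrays 2 and 3 above 15.4% and 22.0%. Its mean was 0.041 ± 2.35 as deposited and -0.22 ± 1.79 centred (SD, n = 3 arrays), so that the sign of the mean turned with centring, although the gene was scored as lower in both settings. Without array 1 the mean as deposited was -1.32.

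Among elongation factors, *eEF1alpha1* (CG8280), which encodes the main eEF1A of the fly, had log2 ratios of 1.25, -1.51 and -2.38 on arrays 1, 2 and 3. Array 1 stood above 0 and both other arrays well below it, as for *eIF4E1*. Centred, arrays 2 and 3 nearly coincided with -1.89 and -1.83, and their mean of -1.86 ± 0.044 (SD, n = 2 arrays) stood for 0.276 of the array median, while array 1 gave 0.29. Over all 3 arrays the mean was -0.88 ± 1.90 as deposited and -1.14 ± 1.24 centred (SD, n = 3 arrays), and without array 3 it was -0.13 as deposited. The related gene *eEF1alpha2* (CG1873) was measured by array 2 alone, where its log2 ratio was -0.42, or -0.79 after centring. The coding sequences of these paralogs are similar, the probes were not examined, and signal from either transcript on the other's spot was not tested. *eIF5A* (CG3186, named *eEF5* in RefSeq) was the most even of the 5 genes with 3 values. Its log2 ratios were -0.36, -1.59 and -1.64, and centred they were -1.33, -1.97 and -1.08, and their mean of -1.46 ± 0.46 (SD, n = 3 arrays) stood for 0.364 of the array median. All 3 arrays placed it among the lower values, with 6.85%, 11.4% and 16.7% of the values of arrays 1, 2 and 3 below it.

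Relative to the median of each array, the 6 factors with at least 2 values divided into 2 sets. *eIF4G1*, *eIF4A* and *eIF5A* were low on every array on which they had a value. *eIF4E1*, *pAbp* and *eEF1alpha1* were low on arrays 2 and 3 and above the median on array 1. With centred arrays and all 3 required to pass, *eIF4G1* and *eIF5A* were scored as lower, 2 of the 5 genes with 3 values, against 16.1% of all genes with 3 values. The pattern of the second set was also found outside the translation factors. Of all 212 genes that lay under the lower threshold on centred arrays 2 and 3 and had a value on array 1, 37.3% lay above the median of array 1. Of the translation factors it was 3 of 5.

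The calls depended on which arrays had to pass. With both arrays 2 and 3 required, 5 of 7 genes with both values were scored as lower, as deposited and centred, against 25.3% and 25.9% of all genes. With arrays 1 and 3 required, 0 of 6 genes were lower as deposited, against 2.45% of all genes, and 3 of 6 on centred arrays, namely *eIF4G1*, *eIF4A* and *eIF5A*, against 11.3%. With arrays 1 and 2 required, 0 of 5 were lower as deposited, against 2.26%, and 2 of 5 on centred arrays, *eIF4G1* and *eIF5A*, against 15.5%. With all 3 required and values as deposited, 0 of 5 were lower, against 2.15%. Nearly all ratios compared on an array, a sample that left out the lowest and the higher ratios, were whole thousandths times 1 factor. With this factor divided out, a setting added with the values known, *eIF4G1*, *eIF4E1* and *eEF1alpha1* were lower and 0 genes higher, against 16.4% lower and 46.6% higher of all genes, and the median over the 8 genes was -0.38. Scaling of each centred array by its median absolute deviation gave 6 of 8 genes as lower, against 21.3% of all genes, a lower threshold symmetric with the upper one gave 6 of 8, against 22.4%, and scoring of the mean over the arrays gave 7 of 8, against 26.5%.

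**Figure D2:**
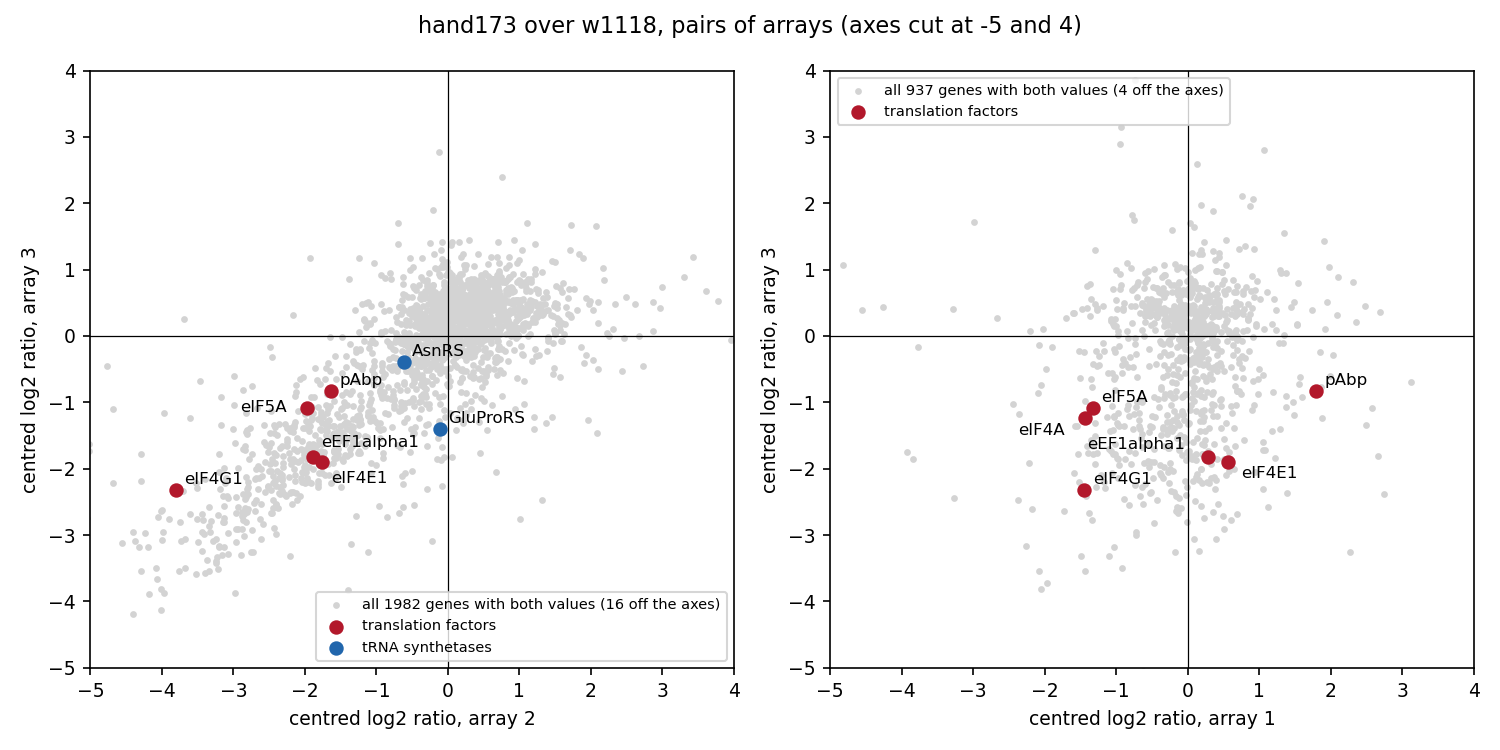
Centred log2 ratios of *hand173* over *w1118* on array 3 against array 2 (left, 1982 genes) and against array 1 (right, 937 genes). Grey points are all genes with both values, red points translation factors and blue points synthetases. On the left 5 factors lie below 0 on both axes, and on the right 3 of 6 factors lie right of 0.

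The remaining initiation factors had 1 value each and cannot be set against a second array. *eIF2alpha* (CG9946), the subunit whose phosphorylation restrains initiation under stress, had a log2 ratio of 2.96 on array 2, or 2.58 centred, above 97.9% of the values of that array. *eIF3a* (CG9805), a core subunit of eIF3, had 1.81 on array 1, or 0.84 centred, above 90.7% of the values. Both were thus above their array's median, but on different arrays and without a repeat. On array 2 the cap-binding genes with a value lay below the median. On array 1, where *eIF3a* was measured, that group lay on both sides. There *eIF4E1* and *pAbp* had 0.56 and 1.79 centred, and *eIF4G1* and *eIF4A* -1.45 and -1.44.

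Synthetases lay closer to the array medians. Of the 9 with a value, 2 had a value on 2 arrays, and only these could be scored. By the study's rule 0 of these 2 were lower and 0 higher, against 20.5% and 9.69% of all genes. Scoring of the mean over the arrays as deposited put these 2 under the lower threshold, against 26.5% of all genes. *GluProRS* (CG5394), which charges the tRNAs of both glutamate and proline, had log2 ratios of 0.26 on array 2 and -1.96 on array 3. Centred, these were -0.12 and -1.40, so that the gene was near the median on array 2 and low on array 3 only. *AsnRS* (CG10687), the asparagine enzyme, had -0.24 and -0.95, or -0.61 and -0.39 centred, with a centred mean of -0.50 ± 0.16 (SD, n = 2 arrays). Both arrays placed it slightly below the median. *LysRS* and *TrpRS* had a value on array 2 only.

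Array 3 carried most synthetases and allows an order within 1 hybridization. Of the 13 listed genes with a value there, 10 lay under the lower threshold as deposited, against 49% of all genes, and 0 over the upper one, against 6.5%. Centred, 8 of 13 lay under the lower threshold and 2 over the upper one, against 28.1% and 27.3% of all genes. The order ran from *eIF4G1* through *eIF4E1*, *eEF1alpha1*, *GluProRS*, *eIF4A*, *eIF5A*, *ArgRS*, *pAbp*, *GlnRS*, *AsnRS*, *CysRS* and *HisRS* to *AlaRS*. The 6 factors had centred log2 ratios from -2.33 to -0.83, with a median of -1.54, whereas the 7 synthetases ran from -1.40 to 0.93, with a median of -0.39. Coverage differed too, since 5 of these factors and no synthetase had values on all 3 arrays. Over all 466 genes with 3 values the centred median on array 3 was -0.57. The part of coverage in the difference between factors and synthetases was not tested. The ranges overlapped through *GluProRS* and *ArgRS*, and *ArgRS* had -1.50 as deposited. *ArgRS*, *GluProRS* and *GlnRS* belong, in animals, to the multisynthetase complex, a particle that joins several synthetases, and had centred log2 ratios of -0.94, -1.40 and -0.50 on array 3. *AsnRS*, *CysRS*, *HisRS* and *AlaRS*, which are not part of it, had -0.39, 0.20, 0.49 and 0.93. On array 2 the order by membership was not the same, since *AsnRS* had -0.61, against -0.51 for *LysRS* and -0.12 for *GluProRS*, both of the complex, and 0.068 for *TrpRS* outside it. *HisRS* and *AlaRS* passed the upper threshold on the centred array and not as deposited, where their log2 ratios were -0.066 and 0.38. With 1 value per gene neighbours in this order cannot be told apart, and no error can be given.

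**Figure D3:**
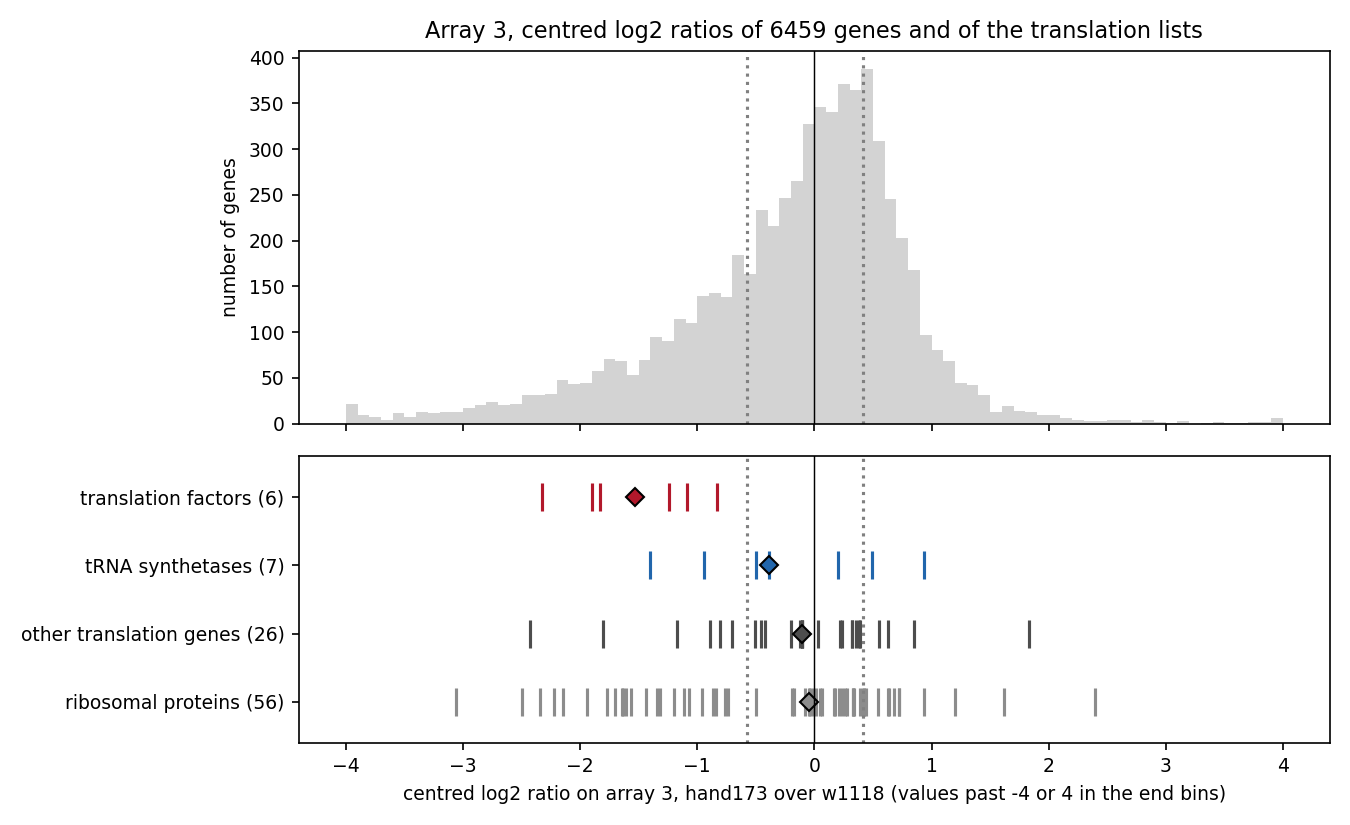
Centred log2 ratios of *hand173* over *w1118* on array 3, as a histogram of all 6459 genes and, below, with 1 line per gene for 6 translation factors, 7 synthetases, 26 other translation genes and 56 ribosomal proteins. Diamonds mark medians (-1.54, -0.39, -0.10 and -0.042), dotted lines the thresholds. All 6 factors lie left of the lower threshold. Of them 5 had values on all 3 arrays, and no synthetase had.

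Further translation genes, listed by their RefSeq symbols, comprised 62 genes for other initiation and elongation factors, mitochondrial synthetases and regulators of translation, of which 30 had a value and 9 had at least 2. As deposited 1 of the 9 was scored as lower and 1 as higher, and on centred arrays 2 as lower and 0 as higher. Of all genes with at least 2 values, 20.5% were lower and 9.69% higher as deposited, and 21.9% and 11.8% on centred arrays. *SerRS-m* (CG4938), a mitochondrial serine enzyme, was scored as lower in both settings, with log2 ratios of -2.02 on array 2 and -2.36 on array 3. The gene scored as higher as deposited was *Gcn2*, a kinase of *eIF2alpha*, with log2 ratios of 0.75, 1.53 and -0.17, and the gene added on centred arrays was *Paip2*, a repressor that binds the poly(A) binding protein, with centred values of -0.73, -0.62 and -0.12. Over these 9 genes the median of the centred mean was 0.11. Among cytoplasmic ribosomal proteins, 10 of the 30 genes with at least 2 values were scored as lower and 2 as higher as deposited, and 12 and 3 on centred arrays, against the same shares of all genes. Each of the 8 ribosomal proteins that were scored as lower and had 3 values passed the upper threshold on array 1 as deposited, as did *eIF4E1*, *pAbp*, *eEF1alpha1* and *eIF3a*, 4 of the 7 listed genes on that array, and as did 77.6% of all its genes.

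Markers of other tissues that the dissected material could hold lay on both sides of the array medians. Of 7 fat body markers 6 had a value, and their centred log2 ratios ran from -3.68 to 1.04 with a median of 0.37 over all 10 values. *Lsp1alpha*, a larval storage protein gene of the fat body, had 0.39, -3.68 and -3.05 centred on arrays 1, 2 and 3, so that, as for *eIF4E1*, array 1 lay above its median and arrays 2 and 3 below theirs. The other fat body markers lay above the median of every array on which they had a value. They ran from 0.024 for *Lsp1beta* to 1.04 for *Lsp2*, each on array 3. Of 6 hemocyte markers 3 had a value, from -2.41 to 1.78. The median over their 5 values was -0.67, and 3 of these values were of *Pxn* alone. *Pxn*, an extracellular peroxidase of hemocytes, had -0.67, -2.07 and -2.41 on arrays 1, 2 and 3, while *NimC1*, a phagocytosis receptor, had -0.22 on array 3 and *srp*, a GATA factor of blood cells, 1.78 on array 2. For 4 of 6 nephrocyte markers the range was -0.19 to 1.06. The part of other cell types in the ratios of the translation genes was not tested.

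As the only measure of error across genes, limma was applied against 0 with the arrays taken as independent. This covers the spread between arrays but not between RNA pools or animals. With values as deposited, every listed gene with 3 values had the same standard error, 0.66, whatever its own SD. Its p-values there rest on a spread shared across genes, not on the spread of *eIF4G1* itself. On centred arrays the standard error differed between genes, from 0.23 to 1.52 over all genes. With Benjamini-Hochberg adjustment over 2517 genes and a threshold of 0.05, limma scored *eIF4G1* alone among the 8 genes as lower with values as deposited (adjusted p = 0.015), against 5.4% of all genes. On centred arrays it scored 0 of the 8, against 5.88% of all genes, with adjusted p = 0.054 for both *eIF4G1* and *eIF5A* and 0.10 for *eIF4A*. At an unadjusted p threshold of 0.05 these 3 genes were lower on centred arrays, against 18.0% of all genes, and *eIF4G1* alone as deposited, against 11.9%.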

How the data were processed

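The authors scanned the spotted arrays and normalized them with GenePix and Acuity. For each gene they deposited 1 log2 ratio from each array on which a value was kept. The normalization method, the spot filter, the combination of spots and the reason for empty cells are not given in the sources used here. No scan was used, so signal over background is unknown. Precision is limited by the number of arrays. With 2 as the log base, 98.2% to 99.0% of the ratios compared per array were whole thousandths times 1 factor (tolerance 0.02), against at most 10.9% with e or 10, which settles the base. Direction follows the dyes in the labels.

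Values were used as deposited and after subtraction of each array's median. No value was filled in. Scoring followed the study's rule without a test. By rule, listed genes with at least 2 values were named, and genes of other translation lists where scored in both settings. *SerRS-m* met this. Listed genes with 1 value, *Gcn2*, *Paip2* and single markers were named after their values were seen. Members and lists were chosen with earlier results of these data known. Symbols are those of RefSeq (Release 6 plus ISO1 MT), with no coordinates printed, since the build behind the array is not given in the sources used here. Python 3.11.15, pandas 2.3.3, R 4.3.3 and limma 3.58.1 were used, and the steps were tested on simulated data.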

Additional observations from a re-analysis of the deposited data

How the results depend on the processing

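The count of 5 factors scored as lower rested on arrays 2 and 3. Leaving out 1 array and requiring the other 2, it was 5 without array 1, against 25.3% of all genes. It was 0 without array 2 or without array 3, against 2.45% and 2.26%, since array 1 as deposited held no factor under the lower threshold. Requiring all 3 arrays gave 0, against 2.15%. With limma it was 1 as deposited, against 5.4%, and 0 on centred arrays, against 5.88% (3 at an unadjusted p threshold of 0.05, against 18.0% of all genes). Division by the factor found from the compared ratios of an array, added with the values known, gave 3 (*eIF4G1*, *eIF4E1* and *eEF1alpha1*), against 16.4%. On centred arrays it was 3 without array 2, 2 without array 3 and 2 with all 3 required, against 11.3%, 15.5% and 16.1% of all genes. The other settings gave 5 to 7 of the listed genes, against 21.3% to 45.3% of all genes. The 7 came from scoring of the mean over the arrays, which added *eIF4A* and the synthetases *GluProRS* and *AsnRS* and left out *pAbp*.

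The mean of *pAbp* was 0.041 as deposited and -0.22 on centred arrays (limma on centred arrays -0.22, adjusted p = 0.88), and ranged from -1.32 without array 1 to 0.75 without array 3. That of *eIF4E1* ranged from -1.91 without array 1 to 0.078 without array 3. Of the 9 other translation genes, 2 were lower on centred arrays, against 21.9% of all genes. As deposited, 0 of 2 genes with 3 values were lower, against 45.3%, and 0 of 2 with all 3 arrays required, against 2.15%. Without array 1 it was 1 of 9, against 25.3%, and without array 2 or array 3 it was 0 of 2, against 2.45% and 2.26%. In limma 0 of 9 were lower as deposited and centred, against 5.4% and 5.88%. At an unadjusted p threshold of 0.05 it was 1 in either fit, against 11.9% and 18.0%. On centred and on scaled arrays 0 of the 9 were higher, against 11.8% and 11.1% of all genes. With all 3 arrays required 0 of 2 were higher, against 1.07%. In limma 0 of 9 were higher (0 unadjusted), against 0.318% as deposited and 0% centred with adjustment. Without array 1 it was 0 of 9, without array 2 0 of 2 and without array 3 1 of 2, against 1.97%, 4.38% and 32.8%. With the factor divided out 4 of 9 were higher, against 46.6%. The cause of these changes was not tested. No separate paired analysis was run, because each value is already a ratio of both genotypes within 1 hybridization. Other background corrections, spot filters and slide blocks were not run, since no spot intensities were used.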
